A study of Caenorhabditis elegans with 9 samples.

Results

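Major sperm proteins (MSPs) are small cytoskeletal proteins of nematode sperm. Their filaments drive the crawling of these amoeboid cells, and MSP released from sperm also acts as a signal that triggers oocyte maturation and contraction of the gonadal sheath. They are encoded by many near-identical msp genes, most of them grouped on chromosomes II and IV of Caenorhabditis elegans, and the ssp genes (sperm-specific family) encode small proteins related to them. In the hermaphrodite, sperm are made before the adult stage and stored in the spermatheca, beside the intestine but not part of it.

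The genes described here are all those of the deposited table whose name starts with msp- or ssp- and a digit. They number 43 of 21776 genes, 31 of them msp and 12 ssp. The data are 9 SMART-seq libraries of intestines dissected from adults of the wild-type strain N2, each library pooling the intestines of 3 worms. Synchronized L1 larvae had been raised for 4 days at 20 °C in the liquid medium mCeHR2, which held 2, 20 or 400 µM heme, a cofactor that C. elegans cannot make itself. There are 3 libraries per dose, numbered 1 to 3. Whether libraries of 1 dose stem from separate cultures is not stated by the labels, and the p-values below therefore measure spread between libraries, which may be technical. The labels give neither the sex of the worms nor which other tissue remained attached.

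The libraries held between 44385011 and 72960600 counts. Ribosomal RNA took between 2.30 and 41.97% of them, with the highest shares in 20 µM replicates 2 and 3. A list of 19 intestine genes summed to between 23889 and 203945 CPM per library (CPM are counts scaled to a common library total), so markers of the labelled tissue were present in all 9. The yolk protein genes vit-2 and vit-6 set which libraries were lowest (20 µM replicate 2 and 2 µM replicate 1), and without them the other 17 genes summed to between 17551 CPM in 20 µM replicate 3 and 42843 CPM in 400 µM replicate 3. The libraries of 2 µM replicates 2 and 3 were nearly alike (chi-square per degree of freedom 11.25 over genes, against 361 or more for every other pair of a dose). They differed by more than sampling noise and were kept as 2 libraries.

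In the WBcel235 annotation (Ensembl release 115), 36 members stand in 4 runs, in which neighbouring members lie less than 250 kb apart. Run II-a holds 10 msp genes at II:4785898-5200180, and run II-b holds 3 msp genes at II:5797065-5810330. Run IV-a holds 9 msp and 2 ssp genes at IV:4994371-5316906, and run IV-b holds 9 msp and 3 ssp genes at IV:9689015-10143740. The remaining 7 members, all ssp genes, lie alone on chromosomes I, IV and V. All 43 are protein coding and 40 consist of a single exon. Of the 31 msp genes, 28 span 384 bases with a coding length of 381. Such likeness limits every value of a single gene, because how reads that match several genes were assigned is not given in the sources used here. Splitting reads among members in another way would leave their sum unchanged, whereas reads left out altogether would lower it.

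Summed over the family, sperm protein transcripts were least abundant in all 3 libraries of 20 µM heme. The SD of the sum was largest at 400 µM, where its mean was also highest. The 43 genes together held 1446, 1498 and 1480 CPM in replicates 1 to 3 at 2 µM heme, 76.7, 93.3 and 298.7 CPM at 20 µM, and 15203, 1379 and 8629 CPM at 400 µM. The mean sum was 1474 ± 26.4 CPM (SD, n = 3 libraries) for 2 µM, 156 ± 124 CPM for 20 µM and 8403 ± 6915 CPM for 400 µM. The SD at 2 µM includes the nearly alike replicates 2 and 3. The means at 2 and 400 µM were 9.44 and 53.8 times that at 20 µM. Single libraries moved these ratios, which were 17.3 and 98.9 without 20 µM replicate 3, and the ratio of 400 to 20 µM was 32.03 without 400 µM replicate 1. At 400 µM the libraries fell far apart, with replicate 2 just below the 3 libraries of 2 µM and replicate 1 about an order of magnitude above them. The place of replicate 2 depends on the scaling. Its TMM factor (the scaling of the edgeR test) was 0.971, against 1.116, 1.112 and 1.080 for the 2 µM libraries. With totals so scaled it lay above them. In 400 µM replicate 1 the family took 1.52% of all counts. In bulk tissue, fewer sperm or spermatids in a sample and less RNA per cell cannot be told apart.

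The msp genes carried most of this sum. They held 1282, 1302 and 1288 CPM at 2 µM, 69.4, 77.7 and 276.4 CPM at 20 µM, and 13260, 1209 and 7657 CPM at 400 µM. The ssp genes held 163, 195 and 192 CPM at 2 µM, 7.32, 15.5 and 22.3 CPM at 20 µM, and 1943, 170.1 and 972 CPM at 400 µM. Both families thus stood in the same order of libraries at 400 µM, with replicate 1 highest and replicate 2 lowest. The ssp share of the sum ranged from 7.47% in 20 µM replicate 3 to 16.7% in 20 µM replicate 2, and from 11.3 to 13.1% in the 6 libraries of the other doses.

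**Figure D1:**
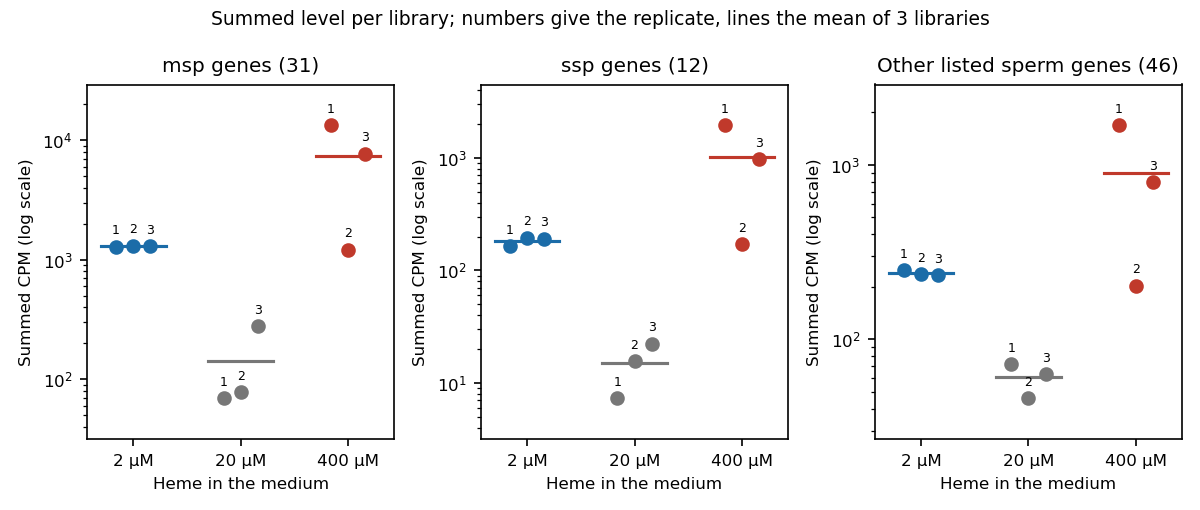
Summed level in CPM (log axis) of the 31 msp genes, the 12 ssp genes and 46 other listed sperm genes in each library, by heme dose; numbers give the replicate and lines the mean of 3 libraries. In all 3 panels the 20 µM libraries lie lowest, and at 400 µM replicate 1 lies highest and replicate 2 lies near or below the level of the 2 µM libraries.

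The order of libraries was shared by nearly all members. The highest CPM was in 400 µM replicate 1 for 41 of the 43 genes. In 37 of them every 20 µM library lay below every 2 µM library, and in 40 every 20 µM library lay below every 400 µM library. Of all genes tested, 20.4% and 24.8% had these orders. Members of near-identical sequence are not separate observations, since how reads were split among them is not given. Both 400 µM replicates 1 and 3 exceeded all 2 µM libraries for all 43, whereas 400 µM replicate 2 exceeded them for 12 and lay below them for 14. The counts for replicate 2 hold for CPM over library totals and depend on that scaling. A count was present in all 9 libraries for 34 members.

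Spread between libraries differed by dose. The median coefficient of variation of a member was 23.5% at 2 µM, 97.4% at 20 µM and 82.1% at 400 µM. The 2 µM value includes the nearly alike replicates 2 and 3 and may understate the spread between independent libraries. At 400 µM, replicate 1 exceeded replicate 2 by a median of 10.6-fold over the 40 members with at least 20 counts in both, between 1.19-fold for ssp-37 and 19.8-fold for msp-38. The ratio of replicate 3 to replicate 2 had a median of 6.47 and that of replicate 1 to replicate 3 a median of 1.80. Among the 20 µM libraries, replicate 3 was the highest for 31 members and replicate 1 for 0.

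**Figure D2:**
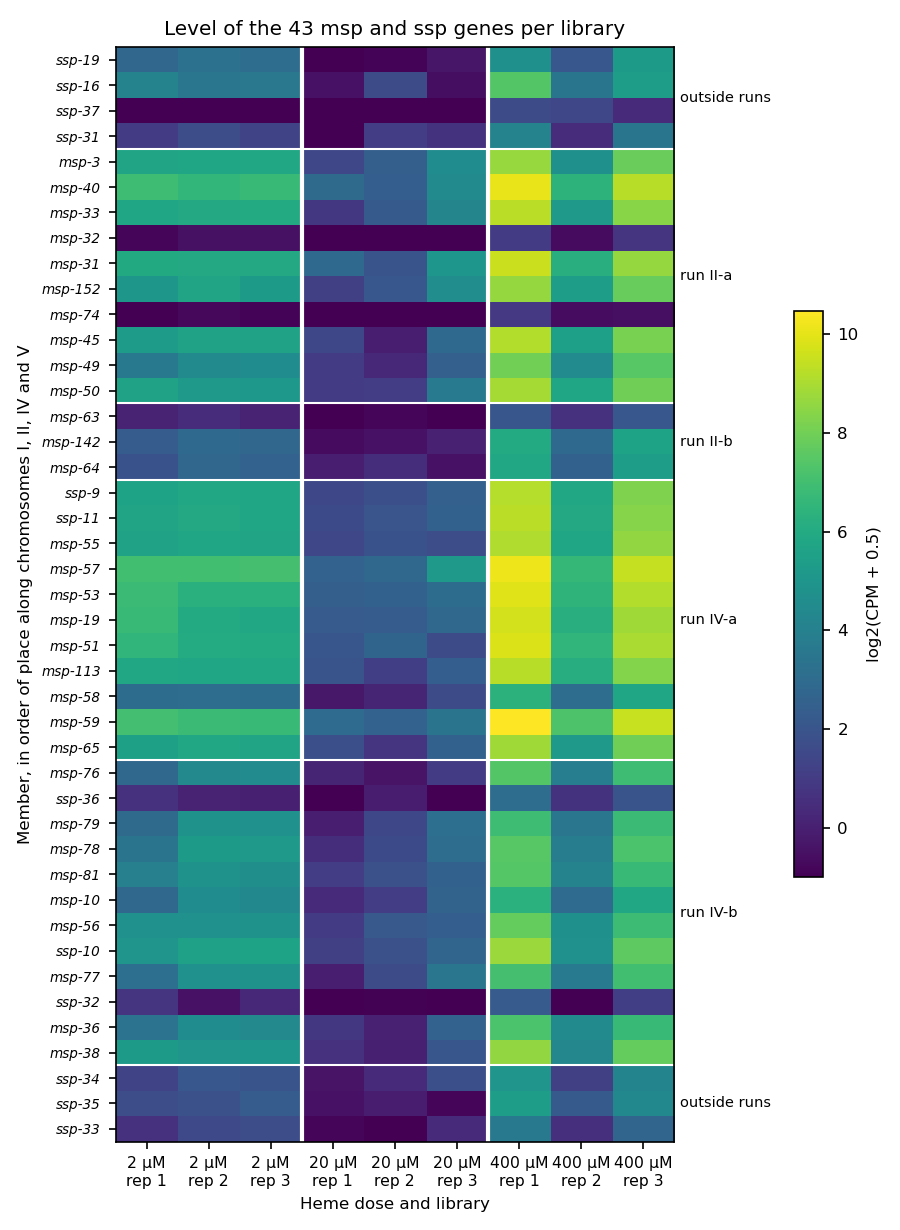
Level of each of the 43 genes in each library as log2(CPM + 0.5), with genes in order of place along chromosomes I, II, IV and V and white lines between runs and doses. Nearly all rows are darkest in the 3 columns of 20 µM heme and brightest in 400 µM replicates 1 and 3.

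The most abundant msp genes are compared per length in the FPKM values of the authors' table, which are scaled to gene length and depth. Averaged over the 9 libraries, the median msp gene had 142 FPKM and the median ssp gene 22.5 FPKM. The highest was msp-59 with 722 FPKM, followed by msp-57 with 646, msp-40 with 578, msp-53 with 512 and msp-51 with 477 FPKM, and the highest ssp gene was ssp-11 with 372 FPKM. The lowest were msp-74 with 0.791, msp-32 with 0.949 and ssp-37 with 1.71 FPKM. This average over libraries of very unequal level rests mainly on 400 µM replicates 1 and 3. By CPM, msp-59, msp-57 and msp-40 were also the 3 highest members in every library of 2 µM heme and in 400 µM replicates 1 and 3, but the order differed elsewhere. In 20 µM replicate 3 the highest were msp-57, msp-31, msp-152, msp-3 and msp-40, and msp-59 held 3.34% of the family's CPM, against 6.08 to 11.1% in the other 8 libraries.

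Whether the transcripts differed between doses was tested over all 13434 genes that passed a filter on low counts, with the quasi-likelihood test of edgeR and Benjamini-Hochberg adjustment. Of the 43 members 42 passed the filter, and msp-74 did not. In each comparison the members' log2 fold changes are given with an SE, and a gene is called where its adjusted p is under 0.05. The SE was derived from the test, as the absolute log2 fold change divided by the square root of the F statistic.

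Between 400 and 20 µM heme, 12 members rose and none fell. They were 9 msp genes (msp-142, msp-64, msp-55, msp-53, msp-19, msp-51, msp-113, msp-59 and msp-56) and 3 ssp genes (ssp-9, ssp-11 and ssp-35). Of all genes tested, 0.543% were called higher at 400 µM. The libraries of the 2 doses did not overlap for 39 of the 42 tested members, all higher at 400 µM, against 24.8% of all genes tested. The unadjusted p was under 0.05 for 41 of the 42, all higher, against 11.2% of all genes. The median log2 fold change over the members was 5.37, and over all genes −0.03. Over the 39 members with more than 3 counts at both doses it ranged from 2.97 for ssp-34 to 6.97 for ssp-19.

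Of the called genes, 6 msp and 2 ssp genes lie in run IV-a. At IV:5312728-5313111, msp-59 had 132, 111 and 107 CPM at 2 µM, 7.49, 5.67 and 9.98 CPM at 20 µM, and 1407, 154 and 733 CPM at 400 µM. Its log2 fold change between 400 and 20 µM was 5.93 (SE 0.85, edgeR adjusted p = 0.0355). The 3 doses of msp-59 did not overlap, and the lowest 400 µM library, replicate 2, was only just above the highest of 2 µM. The gene msp-55 (IV:5055631-5056014) had 48.6, 52.4 and 51.7 CPM at 2 µM, 2.21, 3.17 and 2.73 CPM at 20 µM, and 544, 53.7 and 386 CPM at 400 µM. With a log2 fold change of 6.32 (SE 0.80, edgeR adjusted p = 0.0351) it had the smallest p of the family. Its libraries lay close together at 2 and at 20 µM but not at 400 µM.

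For msp-51 (IV:5294957-5295340) the levels were 93.9, 65.8 and 63.4 CPM at 2 µM, 3.75, 5.95 and 2.61 CPM at 20 µM, and 931, 91.4 and 506 CPM at 400 µM, with a log2 fold change of 6.40 (SE 0.83, edgeR adjusted p = 0.0355) between 400 and 20 µM. In msp-51, as in msp-53 and msp-19, 400 µM replicate 2 lay within the range of the 2 µM libraries. The gene msp-53 had 112, 76.5 and 77.7 CPM at 2 µM, 4.99, 5.36 and 7.91 CPM at 20 µM, and 965, 86.2 and 555 CPM at 400 µM. The gene msp-19 had 104, 62.9 and 58.0 CPM at 2 µM, 4.36, 4.58 and 6.83 CPM at 20 µM, and 805, 72.3 and 448 CPM at 400 µM. Their log2 fold changes between 400 and 20 µM were 5.80 (SE 0.86) and 5.73 (SE 0.87), each with an edgeR adjusted p of 0.0355. Next to msp-51, msp-113 had 56.8, 54.6 and 55.9 CPM at 2 µM, 3.46, 1.68 and 4.89 CPM at 20 µM, and 594, 69.98 and 324 CPM at 400 µM, and its log2 fold change was 5.87 (SE 0.90, edgeR adjusted p = 0.0355). All 6 msp genes of run IV-a that rose had their highest level in 400 µM replicate 1.

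The called ssp genes of the run, ssp-9 (IV:4994371-4994700) and ssp-11 (IV:4999485-4999814), lie 4784 bases apart on the minus strand. Ensembl gives both the symbol ssp-9, and they are kept apart here by the identifier in the RefSeq gene table. The gene ssp-9 had 49.01, 56.0 and 53.6 CPM at 2 µM, 2.27, 3.01 and 5.16 CPM at 20 µM, and 586, 57.0 and 305 CPM at 400 µM. The gene ssp-11 had 50.5, 59.8 and 54.9 CPM at 2 µM, 2.52, 3.51 and 5.47 CPM at 20 µM, and 616, 60.2 and 329 CPM at 400 µM. Their levels followed each other in every library. The log2 fold changes between 400 and 20 µM were 5.86 (SE 0.85) and 5.81 (SE 0.84), each with an edgeR adjusted p of 0.0355.

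The other called members were less abundant. In run II-b, msp-142 (II:5797927-5798310) had 4.47, 7.02 and 6.41 CPM at 2 µM, 0.122, 0.229 and 0.541 CPM at 20 µM, and 64.1, 6.95 and 49.2 CPM at 400 µM. Its log2 fold change between 400 and 20 µM was 6.45 (SE 0.95, edgeR adjusted p = 0.0355), the largest among the called genes. The level of msp-64 was 3.19, 6.33 and 5.55 CPM at 2 µM, 0.473, 0.916 and 0.248 CPM at 20 µM, and 58.5, 5.48 and 41.2 CPM at 400 µM, giving a log2 fold change of 5.498 (SE 0.85, edgeR adjusted p = 0.0355). In both genes 400 µM replicate 2 stood inside the range of the 2 µM libraries. In run IV-b, msp-56 had 27.4, 27.1 and 29.4 CPM at 2 µM, 1.495, 4.03 and 4.91 CPM at 20 µM, and 216, 26.4 and 116 CPM at 400 µM. Its log2 fold change between 400 and 20 µM, 4.54 (SE 0.75, edgeR adjusted p = 0.0405), was the smallest among the called genes. On chromosome V, ssp-35 had 2.80, 3.07 and 4.53 CPM at 2 µM, 0.229, 0.420 and 0.0676 CPM at 20 µM, and 42.2, 4.17 and 20.1 CPM at 400 µM, with a log2 fold change of 6.02 (SE 0.91, edgeR adjusted p = 0.0355).

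These 12 calls rest on the exact set of libraries. All 12 were lost when any 1 of 7 libraries was left out (each 2 µM library, 20 µM replicates 2 and 3, 400 µM replicates 1 and 3), and all 12 were kept without 20 µM replicate 1, where 15 members were called (6.63% of all genes), and without 400 µM replicate 2, where 20 were called (0.937% of all genes). Over these 9 fits the adjusted p of the called genes ranged from 0.00621 to 0.144, and every fold change stayed positive. Without 400 µM replicate 1 the log2 fold change was 5.26 for msp-113, 5.09 for msp-19, 5.78 for msp-51, 5.19 for msp-53, 3.93 for msp-56, 5.27 for msp-59, 5.16 for ssp-11, 5.18 for ssp-9 and 5.32 for ssp-35. Without 20 µM replicate 3 that of msp-142 was 7.38. The Wald test of DESeq2 called 40 of the 42 members (12.3% of all genes), and limma-voom called 0 (0% of all genes, with 32 members at an unadjusted p under 0.05).

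**Figure D3:**
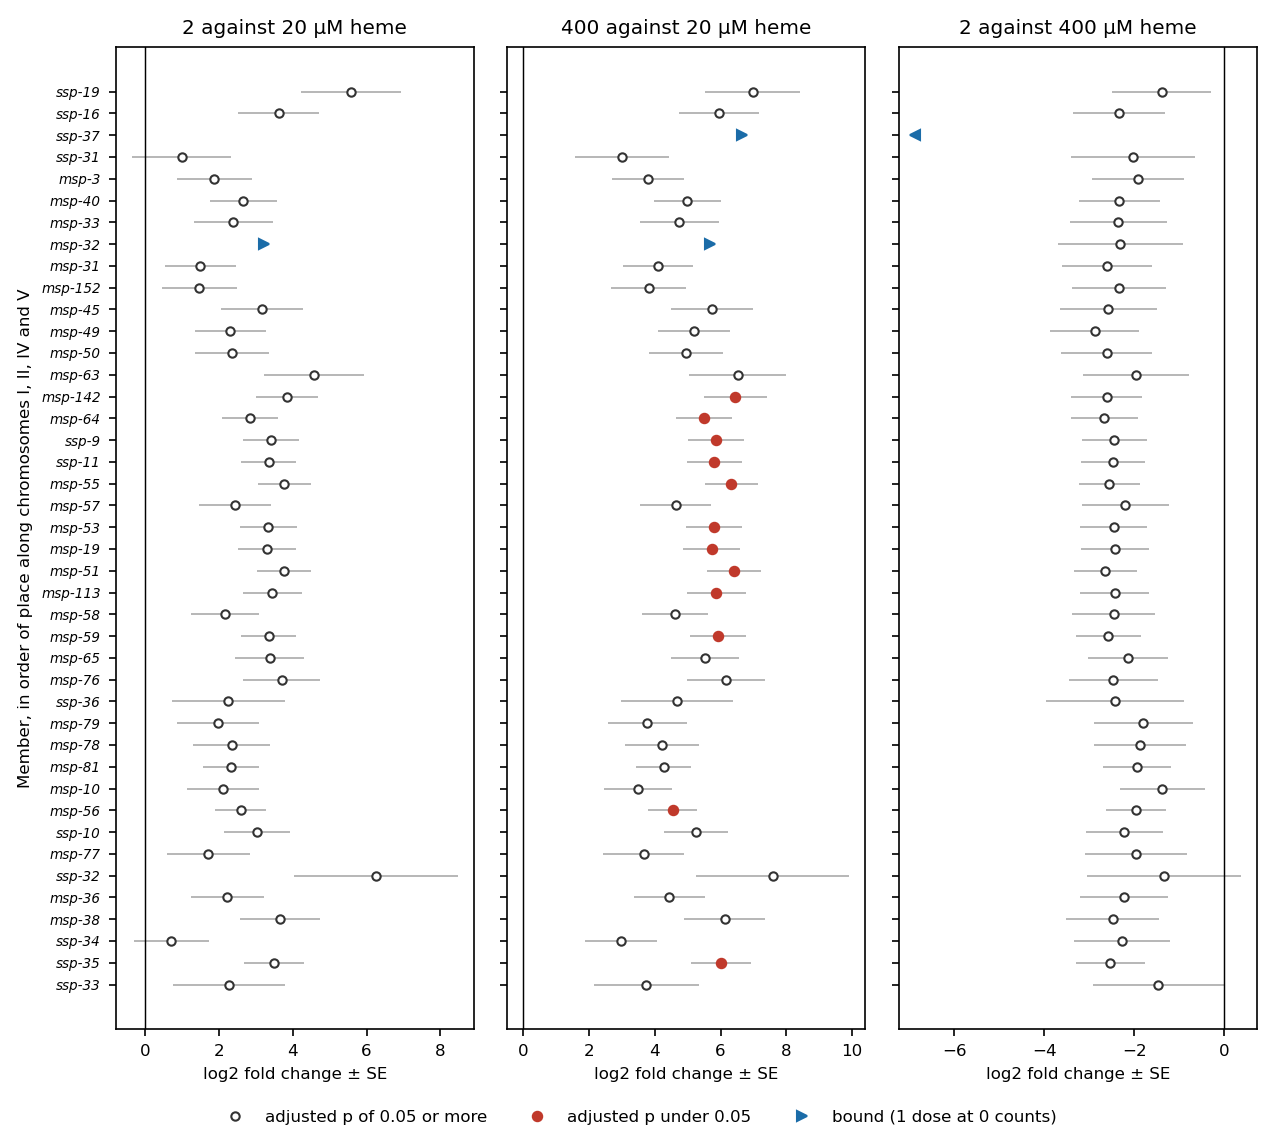
Log2 fold change (± SE) of each tested member in the 3 comparisons of doses, fitted by edgeR over all genes; filled red points mark an adjusted p under 0.05 and blue triangles a bound where all libraries of 1 dose had 0 counts. All points with a value lie right of 0 for 2 against 20 and 400 against 20 µM and left of 0 for 2 against 400 µM, and red points occur only for 400 against 20 µM.

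Several of the most abundant members did not pass between 400 and 20 µM. The gene msp-57 (IV:5062578-5062961) had 127, 126 and 133 CPM at 2 µM, 5.57, 6.66 and 35.8 CPM at 20 µM, and 1166, 98.4 and 689 CPM at 400 µM. Its log2 fold change was 4.64 (SE 1.08, edgeR adjusted p = 0.0914). For msp-40 in run II-a the levels were 118.8, 96.9 and 105 CPM at 2 µM, 7.29, 4.92 and 21.4 CPM at 20 µM, and 1090, 84.6 and 605 CPM at 400 µM, with a log2 fold change of 4.99 (SE 1.012, edgeR adjusted p = 0.0659). In both genes 20 µM replicate 3 stood well above the other libraries of its dose, and 400 µM replicate 2 below the 2 µM libraries. Also in run II-a, msp-33 and msp-31 overlap other annotated genes, and reads of overlapping genes cannot be separated with certainty. The gene msp-31 (II:4916179-4916562), which overlaps aagr-2 on the same strand, had 62.3, 59.8 and 59.9 CPM at 2 µM, 7.002, 3.42 and 31.7 CPM at 20 µM, and 744, 73.8 and 397 CPM at 400 µM. The gene aagr-2 itself ranged from 205 to 470.5 CPM over the 9 libraries, with no library order like that of msp-31. The gene msp-33 (II:4892311-4892694), which overlaps gst-9 on the other strand, had 53.4, 60.6 and 62.98 CPM at 2 µM, 1.31, 4.20 and 17.9 CPM at 20 µM, and 619, 36.4 and 344 CPM at 400 µM. The log2 fold changes of msp-31 and msp-33 between 400 and 20 µM were 4.09 (SE 1.07) and 4.74 (SE 1.20), with edgeR adjusted p of 0.122 and 0.113. With 20 µM replicate 3 left out, the estimates on the log2 scale became 6.18 for msp-57, 5.91 for msp-40, 5.53 for msp-31 and 6.58 for msp-33, and without 400 µM replicate 1 they were 4.02, 4.32, 3.42 and 4.04 in that order. Of these 4 genes, msp-40 was called in 1 of the 9 fits with a library left out.

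Among the ssp genes, ssp-10 (IV:9850702-9851031) had 30.6, 46.8 and 49.6 CPM at 2 µM, 1.74, 3.03 and 6.26 CPM at 20 µM, and 431, 27.5 and 198 CPM at 400 µM, and its log2 fold change between 400 and 20 µM was 5.25 (SE 0.98, edgeR adjusted p = 0.0548). On chromosome I, ssp-16 had 17.1, 10.7 and 11.5 CPM at 2 µM, 0.244, 2.63 and 0.180 CPM at 20 µM, and 167, 10.5 and 42.4 CPM at 400 µM, with a log2 fold change of 5.95 (SE 1.21, edgeR adjusted p = 0.0670). The gene with the largest fold change among members with more than 3 counts at both doses, ssp-19, had 6.41, 9.24 and 7.97 CPM at 2 µM, 0, 0.0382 and 0.315 CPM at 20 µM, and 26.4, 3.77 and 37.4 CPM at 400 µM. It is one of the genes whose highest library was not 400 µM replicate 1 but replicate 3. The gene with the smallest, ssp-34, had 2.03, 3.88 and 3.405 CPM at 2 µM, 0.259, 0.801 and 2.95 CPM at 20 µM, and 30.8, 1.73 and 17.2 CPM at 400 µM. Its 20 µM replicate 3 lay among the 2 µM libraries, and its 400 µM replicate 2 lay below them. Leaving out 20 µM replicate 3 gave 6.05 on the log2 scale for ssp-10, 9.83 for ssp-19 and 4.61 for ssp-34, and leaving out 20 µM replicate 2 gave 7.54 for ssp-16.

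The members with the fewest counts were read against a floor of 3 counts, which corresponds to between 0.0411 and 0.0676 CPM per library and covers counting error only. At both 2 and 20 µM ssp-37 had 0 counts in all libraries, against 2.58, 2.17 and 0.816 CPM at 400 µM, so its level at 400 µM was at least 100.5-fold higher than at 20 µM, with the floor taken over the libraries of the dose. It was the one member detected at 400 µM alone, and the one whose 400 µM replicates 1 and 2 were close to each other. The gene msp-32 had 0.0685, 0.225 and 0.218 CPM at 2 µM, 0 in all 20 µM libraries, and 1.54, 0.140 and 1.15 CPM at 400 µM, which is at least 50.9-fold higher at 400 than at 20 µM. For msp-74, the member that was not tested, the levels were 0, 0.0966 and 0.0364 CPM at 2 µM, 0 at 20 µM, and 1.35, 0.158 and 0.188 CPM at 400 µM. The gene ssp-32 had 1.18, 0.241 and 0.728 CPM at 2 µM, 0, 0.0191 and 0 CPM at 20 µM, and 4.39, 0 and 1.69 CPM at 400 µM. Absence of these transcripts at 20 µM cannot be told from a level under the floor.

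Between 2 and 20 µM heme no member was called by edgeR. Of all genes tested, 0.0744% were called in either direction. For 37 of the 42 tested members the 2 doses did not overlap, all higher at 2 µM, against 20.4% of all genes. The unadjusted p was under 0.05 for 28 members, all with positive fold changes, against 8.09% of all genes. The median log2 fold change over the members was 2.75 (all genes 0.12), and over the 39 members with more than 3 counts at both doses the values ran from 0.70 for ssp-34 to 5.58 for ssp-19. The smallest adjusted p belonged to msp-55, with a mean of 50.9 ± 1.98 CPM at 2 µM and 2.70 ± 0.478 CPM at 20 µM (SD, n = 3 libraries each), a log2 fold change of 3.77 (SE 0.71) and an edgeR adjusted p of 0.0993. For msp-51 the log2 fold change was 3.76 (SE 0.73, edgeR adjusted p = 0.103). DESeq2 called 20 members (6.97% of all genes) and limma-voom 0 (1.88% of all genes). The near-likeness of 2 µM replicates 2 and 3 enters both the test and the count of members without overlap. With these 2 libraries summed to 1 edgeR again called 0.

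Between 2 and 400 µM heme no member was called by edgeR either, against 0.104% of all genes in either direction. All 42 tested members had negative fold changes, with a median of −2.34 (all genes 0.02) and, over the 41 with more than 3 counts at both doses, a range from −2.88 for msp-49 to −1.33 for ssp-32. The unadjusted p was under 0.05 for 26 members, all lower at 2 µM, against 5.37% of all genes. Libraries of the 2 doses did not overlap for 11 members, all lower at 2 µM, against 15% of all genes tested. The gene msp-49 had 11.8, 21.5 and 22.995 CPM at 2 µM and 259, 22.7 and 176 CPM at 400 µM. The gene msp-10 had 6.54, 23.6 and 20.0 CPM at 2 µM and 78.5, 7.48 and 56.9 CPM at 400 µM, with a log2 fold change of −1.37 (SE 0.95, edgeR adjusted p = 0.705). In both, 400 µM replicate 2 fell within the 2 µM range. DESeq2 called 13 members (4.35% of all genes) and limma-voom 21 (27.3% of all genes).

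The comparisons share libraries, so they are set side by side rather than compared as independent results. By run, the median log2 fold change between 400 and 20 µM was 4.95 in II-a (9 tested genes), 6.45 in II-b (3 genes), 5.81 in IV-a (11 genes) and 4.49 in IV-b (12 genes). The number of members called was 0, 2, 8 and 1 in the same order, and 1 of the 7 ssp genes outside the runs (0.543% of all genes called higher). As given above, these calls rest on the exact set of libraries. The 2 doses did not overlap for 9, 3, 11 and 11 of the tested genes of these runs, against 24.8% of all genes. The difference between runs was not tested. Between 2 and 20 µM the medians were 2.34, 3.84, 3.35 and 2.34 in that order.

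The runs took much the same share of the summed level in most libraries, with 20 µM replicate 3 standing apart. Run II-a held 28.9, 28.4 and 28.9% of the family's CPM at 2 µM, 32.5, 25.9 and 47.7% in the 20 µM libraries, and 30.2, 27.7 and 29.1% in those of 400 µM. Run IV-a held 57.2, 48.7 and 48.3% at 2 µM, 52.1, 44.4 and 29.9% in the 20 µM libraries, and 53.6, 57.1 and 53.1% in those of 400 µM. Thus in 20 µM replicate 3 the genes of chromosome II near msp-40 outweighed those around msp-59, while in every other library run IV-a was the larger. Run IV-b held 11.2, 19.8 and 19.7% at 2 µM, 13.6, 22.6 and 20.3% in the 20 µM libraries, and 13.5, 12.4 and 15.1% in those of 400 µM. Its share in 2 µM replicate 1 was below that in the other libraries of the dose, and 8 of its 12 genes were lower there than in replicates 2 and 3. These shares have no test, since genes of a run share libraries and near-identical sequence.

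**Figure D4:**
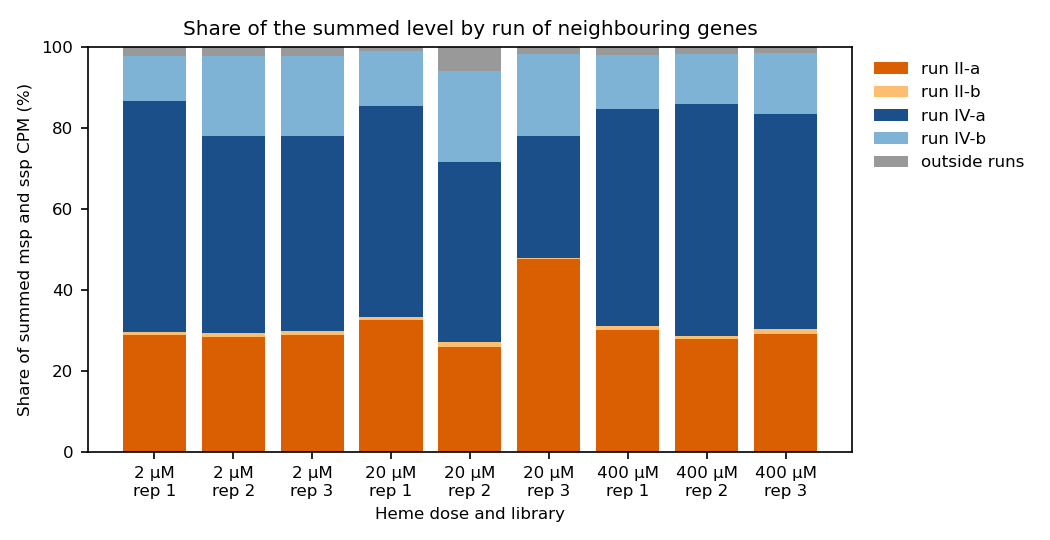
Share (%) of the summed msp and ssp CPM held by each run of neighbouring genes in each library. Run IV-a takes the largest share in all libraries but 20 µM replicate 3, where run II-a holds 47.7% and run IV-a 29.9%.

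Genes of sperm outside the msp and ssp families were likewise lowest in the 20 µM libraries and highest in 400 µM replicate 1, followed by replicate 3. A list of 55 such genes, of which 46 were measured, summed to 249, 237 and 234 CPM at 2 µM, 72.3, 46.1 and 63.4 CPM at 20 µM, and 1686, 203 and 794 CPM at 400 µM. Between 400 and 20 µM, 1 of its 42 tested genes rose (0.543% of all genes) and 23 had an unadjusted p under 0.05, all higher (11.2% of all genes). The median log2 fold change was 3.73. The called gene was gsp-3, a protein phosphatase of sperm, with 16.9, 10.3 and 8.81 CPM at 2 µM, 1.17, 1.60 and 2.21 CPM at 20 µM, and 142, 19.6 and 52.3 CPM at 400 µM. Its log2 fold change was 4.798 (SE 0.74, edgeR adjusted p = 0.0355, between 0.0152 and 0.127 with a library left out). The call of gsp-3 was lost without any 1 of the same 7 libraries as those of the members, and without 400 µM replicate 1 its log2 fold change was 3.96. Between 2 and 20 µM 0 of the 42 were called (14 had an unadjusted p under 0.05, all higher, against 8.09% of all genes, median log2 fold change 2.04). Between 2 and 400 µM 0 were called as well (6 had an unadjusted p under 0.05, all lower, against 5.37% of all genes, median −1.78).

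The most abundant of these genes were mostly those of small proteins with an MSP domain. The gene msd-2 had 14.4, 34.2 and 34.6 CPM at 2 µM, 1.08, 1.97 and 16.8 CPM at 20 µM, and 280.3, 15.4 and 155 CPM at 400 µM. Like 31 of the 43 msp and ssp genes, msd-1, msd-2 and msd-3 were highest among the 20 µM libraries in replicate 3, with 11.4, 16.8 and 7.41 CPM. The gene smz-1, which encodes a PDZ domain protein of spermatogenesis, had 8.44, 17.4 and 15.6 CPM at 2 µM, 0.931, 2.06 and 4.42 CPM at 20 µM, and 84.4, 7.23 and 34.0 CPM at 400 µM. Not all listed sperm genes had this order. For spe-48 the levels were 72.0, 37.9 and 36.3 CPM at 2 µM, 44.9, 11.7 and 3.97 CPM at 20 µM, and 41.1, 21.9 and 20.8 CPM at 400 µM, so that 2 µM replicate 1 was the highest.

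Markers of other tissues moved between libraries as well, and their part in the sperm levels was not tested. A list of 19 oocyte and eggshell genes summed to 158, 355 and 345 CPM at 2 µM, 217, 44.8 and 162 CPM at 20 µM, and 2025, 4214 and 1556 CPM at 400 µM. The highest oocyte level was thus in 400 µM replicate 2, the library with the lowest sperm level of its dose. For example, perm-2, which encodes an eggshell protein, had 23.6, 11.6 and 11.7 CPM at 2 µM, 2.56, 0.0763 and 2.43 CPM at 20 µM, and 488, 1003 and 219.96 CPM at 400 µM. Of the 19 genes, 0 were called between 400 and 20 µM by edgeR, 11 had an unadjusted p under 0.05 (all higher, against 11.2% of all genes), and the median log2 fold change was 2.94. A list of 16 germline genes summed to 77.5, 174 and 160.1 CPM at 2 µM, 76.4, 118 and 87.5 CPM at 20 µM, and 396, 429 and 319 CPM at 400 µM, with 0 of 16 called and a median log2 fold change of 1.85 (9 with an unadjusted p under 0.05, all higher).

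Genes of the body wall and pharynx differed from the sperm genes in which libraries of 2 and 20 µM were high, but within 400 µM they too were highest in replicate 1, and their part in the sperm levels was not tested. The 9 body wall muscle genes summed to 2590, 90.2 and 95.004 CPM at 2 µM, 310, 164 and 115.3 CPM at 20 µM, and 2399, 491 and 421 CPM at 400 µM. The 9 hypodermis genes summed to 3451, 38.2 and 35.7 CPM at 2 µM, 132, 80.5 and 36.6 CPM at 20 µM, and 745, 232 and 153 CPM at 400 µM. While 2 µM replicate 1 stood apart in both lists, its summed msp and ssp level of 1446 CPM lay close to the 1498 and 1480 CPM of the other 2 µM libraries. The 12 measured pharynx genes summed to 1.096, 8.76 and 8.12 CPM at 2 µM, 161, 925 and 15.6 CPM at 20 µM, and 50.5, 2.26 and 4.78 CPM at 400 µM. Their order at 400 µM, with replicate 1 highest and replicate 2 lowest, was that of the sperm genes. The pharynx genes phat-2 and abu-8 had 0 counts at 2 µM. All listed intestine genes summed to 46746, 153944 and 158259 CPM at 2 µM, 170825, 23889 and 192580 CPM at 20 µM, and 98812, 203945 and 188523 CPM at 400 µM, with no order like that of the sperm genes. Without vit-2 and vit-6 the other 17 summed to 28877, 26232 and 26326 CPM at 2 µM, 29567, 23028 and 17551 CPM at 20 µM, and 34701.5, 38370 and 42843 CPM at 400 µM. These sums were highest in the 400 µM libraries, with replicate 1 the lowest of its dose, and lowest in 20 µM replicates 2 and 3. Their part in the sperm levels was not tested.

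**Figure D5:**
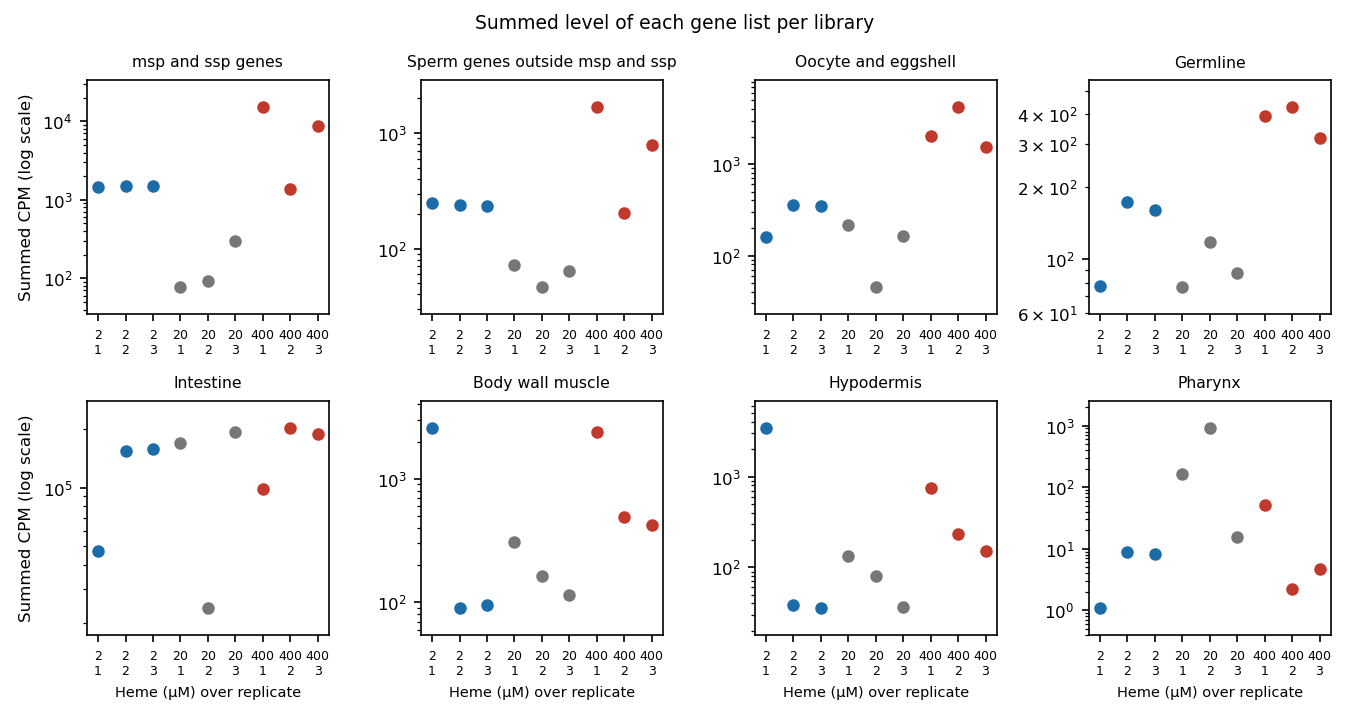
Summed CPM (log axes, which differ between panels) of the msp and ssp genes and of 7 marker lists in each library, labelled by heme dose in µM over the replicate number. Both sperm panels are lowest at 20 µM and highest in 400 µM replicate 1, the oocyte panel is highest in 400 µM replicate 2, and the muscle and hypodermis panels are highest in 2 µM replicate 1.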

How the data were processed

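Raw gene counts and FPKM values stand side by side in the table the authors deposited, per the file headers. Per the submitters' processing notes, Bowtie 0.12.2 and WBcel235 were used. The counting tool, the handling of reads matching several genes and the use of strand are not given in the sources used here. The raw counts were fitted with edgeR 4.0.16 (R 4.3.3; filterByExpr, TMM scaling, quasi-likelihood test) in 1 model with a coefficient per dose over all 9 libraries, with Benjamini-Hochberg adjustment over all 13434 tested genes. CPM were taken over the total count of a library. The FPKM values served to rank levels between genes only. For msp-19, msp-38, ssp-31 and ssp-33 the gene length implied by count and FPKM was 556, 562, 1254 and 721 bases, longer than the annotated gene, so their FPKM are low in comparison. Alternatives were DESeq2 1.42.0, limma-voom (limma 3.58.1), other filters and scalings, and leaving out libraries. The edgeR step was tested on simulated data.

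Named with values are the 8 msp and 4 ssp genes of highest mean CPM, all called members, the 3 tested members of lowest mean CPM and, per comparison, the largest and smallest fold change among members with a mean of at least 1 CPM. From each marker list up to 4 genes of highest mean CPM were eligible (8 for sperm genes) plus called ones. The members, lists and tests were chosen with earlier results of these data known, and msp-74 is named although it was not tested.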

Additional observations from a re-analysis of the deposited data

How the results depend on the processing

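Numbers of called members moved most. Between 400 and 20 µM heme, where edgeR called 12, DESeq2 called 40, and 0 were called by limma-voom, with only the libraries of the 2 doses, or with 2 µM replicates 2 and 3 summed. No filter on low counts gave 18 (of 147 genes called in all) and a minimum of 10 CPM in 3 libraries 9 (of 42 genes called). With 1 library left out the number ranged from 0 to 20. With settings added after seeing the data, it was 34 (of 265 genes called in all) without 20 µM replicate 3 and 400 µM replicate 2, and 0 without 2 µM replicate 1 and 20 µM replicate 2. Between 2 and 20 µM, where edgeR called 0, DESeq2 called 20, and leaving out 1 library gave 0 to 1. Between 2 and 400 µM, where edgeR called 0, DESeq2 called 13 and limma-voom 21. The cause of these differences was not tested.

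The median log2 fold change over the members kept its sign in all comparisons and settings. For 2 against 20 µM it was 2.75, 3.57 with limma-voom, between 2.68 and 3.69 with 1 library left out, and 3.69 without both 20 µM replicate 3 and 400 µM replicate 2. The mean summed level at 2 µM was 1474 CPM, 1659 CPM with ribosomal RNA removed from the totals and 1339 CPM with TMM-scaled totals. In the same order it was 156, 246 and 207 CPM at 20 µM, and 8403, 9164 and 6931 CPM at 400 µM. The ratios of 2 and of 400 to 20 µM were thus smaller under both scalings. DESeq2 size factors placed the median of all genes for 2 against 400 µM at −0.10, against 0.02 with TMM. Of 1528 values of named members under an alternative, 1308 kept direction and side of the threshold, 144 lost a call (all 400 against 20 µM), 75 gained one, and ssp-32 for 2 against 400 µM turned to 0.49 with limma-voom. The alternatives for gsp-3 and inx-14 were added after seeing the data.

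Deviations of same-numbered libraries from their dose means correlated by 0.23 to 0.324 for number 1, −0.00996 to 0.0514 for number 2 and 0.298 to 0.402 for number 3, and those of number 1 with number 3 by −0.441 to −0.219. Since the pairs of number 2 were near 0 and no label ties the numbers to a culture or day, the libraries were not treated as paired. With the replicate number as a block, edgeR called 0 members in the comparison of 400 with 20 µM, with adjusted p of 0.0565 to 0.105 for the 12 genes called without it. Depth limits msp-32, msp-74, ssp-32 and ssp-37, which are at or near the floor at 20 µM. Among other members with few counts at 20 µM, msp-63 had 0, 4 and 0, and ssp-19 had 0, 2 and 14. The large fold changes of ssp-19 against 20 µM rest on these counts.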

Other observations

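Of 15 measured genes through which oocytes and sheath cells respond to the MSP signal, 1 rose between 400 and 20 µM heme (0.543% of all genes). Without 20 µM replicate 1, 4 were called (6.63% of all genes). An unadjusted p under 0.05 was found for 4 with higher levels at 400 µM (11.2% of all genes) and 1 with lower levels. The median log2 fold change was −0.39. The difference from the sperm genes was not tested. The called gene was inx-14, which encodes an innexin, a gap junction subunit that couples germ cells to the sheath. It had 2.32, 1.51 and 1.24 CPM at 2 µM, 1.11, 0.649 and 0.563 CPM at 20 µM, and 15.4, 17.3 and 11.9 CPM at 400 µM, with a log2 fold change of 3.65 (SE 0.61, edgeR adjusted p = 0.0417). Its 3 libraries at 400 µM lay close together. The call of inx-14 was kept without 20 µM replicate 1, with a log2 fold change of 4.33, and lost without any other single library, with adjusted p between 0.0249 and 0.155 over the 9 fits. Chosen after their values were seen, the oocyte genes oma-1, oma-2 and lin-41 had log2 fold changes of 3.398 (SE 1.45), 2.90 (SE 1.19) and 2.17 (SE 0.69), with edgeR adjusted p of 0.258, 0.240 and 0.167. They do not stand for the list. The more abundant ptp-2, plc-3 and gsa-1 had lower means at 400 µM (23.3, 24.0 and 10.9 CPM) than at 20 µM (31.1, 35.1 and 14.6 CPM). The inositol trisphosphate receptor gene itr-1 had 128, 244 and 232 CPM at 2 µM, 46.2, 188 and 89.99 CPM at 20 µM, and 48.8, 62.9 and 93.2 CPM at 400 µM. The receptor gene was not called in any comparison by edgeR.

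Neighbouring members could differ widely in counted level. How reads that match several members were assigned is not given, which limits such comparisons. The genes msp-63 and msp-142 lie 478 bases apart on opposite strands of run II-b and held 674 and 8738 counts over all 9 libraries. The genes msp-33 and msp-32, 6134 bases apart in run II-a, averaged 325 and 0.949 FPKM. In run IV-b, msp-77 and ssp-32 lie 373 bases apart and averaged 95.05 and 2.63 FPKM.

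Markers of the sheath and spermatheca (9 genes) summed to 94.4, 65.2 and 57.9 CPM at 2 µM, 30.2, 122 and 109 CPM at 20 µM, and 99.7, 76.2 and 73.2 CPM at 400 µM, with 0 called in any comparison by edgeR. The non-muscle myosin gene nmy-1 alone had 91.1 and 88.0 CPM in 20 µM replicates 2 and 3. Without it, a choice made after seeing the data, the other 8 genes summed to 71.9, 41.5 and 38.1 CPM at 2 µM, 16.7, 30.7 and 21.5 CPM at 20 µM, and 81.1, 62.5 and 50.2 CPM at 400 µM. These 8-gene sums were lowest in the 20 µM libraries and highest in 400 µM replicate 1, as were those of the sperm genes. Within 400 µM the order differed, with replicate 3 lowest for the 8 genes and replicate 2 lowest for the sperm genes. The innexin gene inx-8 held 24.5 of the 81.1 CPM in 400 µM replicate 1, against 1.49 of the 71.9 CPM in 2 µM replicate 1. The sums of all 9 genes were not lowest in every 20 µM library and were highest in 20 µM replicates 2 and 3. The gene sth-1 alone had 32.0 CPM in 2 µM replicate 1 and 0 to 0.928 CPM in the other libraries. The part of these genes in the sperm levels was not tested. Between 400 and 20 µM, 4 of the 9 genes had an unadjusted p under 0.05 with higher levels at 400 µM (11.2% of all genes) and 1 with lower levels. The innexin gene inx-8, named after its values were seen, had 1.49, 1.77 and 2.08 CPM at 2 µM, 0.122, 0 and 0 CPM at 20 µM, and 24.5, 23.5 and 8.39 CPM at 400 µM. Between 400 and 20 µM its change was 7.96 on the log2 scale (SE 1.41, edgeR adjusted p = 0.0517). The 10 neuron genes summed to between 48.6 CPM in 20 µM replicate 3 and 149 CPM in 20 µM replicate 2, with 0 of 8 tested genes called.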
